A study of Mus musculus with 5 samples.

Results

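The 39 protein-coding Hox genes of the mouse, selected in the GENCODE M21 annotation of mm10 as every symbol made of Hoxa, Hoxb, Hoxc or Hoxd followed by digits, were examined for occupancy by the histone variant macroH2A1.2. They are 39 of the 21755 protein-coding genes on chromosomes that held enriched regions. A cluster was taken from the first to the last base of its Hox genes, and 500 kb on each side served as its flanks. Hoxa held 11 genes on chromosome 6 (chr6:52155590-52260880, 105 kb), Hoxb 10 genes on chromosome 11 (chr11:96194316-96368256, 174 kb), Hoxc 9 genes on chromosome 15 (chr15:102921103-103036852, 116 kb) and Hoxd 9 genes on chromosome 2 (chr2:74668310-74765142, 96.8 kb). The clusters held 25 of 36468 and 25 of 38546 enriched regions in replicates 1 and 2 of pre-adipocytes, and 36 of 59375 and 39 of 61196 in replicates 1 and 2 of mature adipocytes.

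The regions came from ChIP-Seq with an anti-GFP antibody on 3T3-L1 cells, a mouse fibroblast line that can be turned into fat cells in culture, and every sample carried a lentiviral macroH2A1.2-GFP fusion in stable expression. Pre-adipocytes (2 replicates) were not induced, and mature adipocytes (2 replicates) had received IBMX, dexamethasone and insulin (the XDI cocktail) for 60 h, after which IBMX and dexamethasone were withdrawn. A library made without antibody served the authors as control, and its reads appear only as counts beside each enriched region. For the control and both mature adipocyte samples, the description field contradicts the title, and the groups used here follow the titles. The tagged protein was added to whatever macroH2A1 the cells make themselves, the study calls the replicates biological duplicates, and its methods name adipose tissue where its labels name this cell line. Regions of bound chromatin hold no transcript levels, so marker genes of fat cells could not be used to check the cell state.

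Hox genes encode homeodomain transcription factors that give cells their position along the body axis, and each cluster lines its genes up in the order in which they act from head to tail. The numbers in their names are paralog groups: low numbers act anteriorly, high numbers posteriorly, and cells keep a lasting memory of position through Polycomb and Trithorax proteins that hold parts of a cluster silent or active. MacroH2A1.2 is a splice form of a large H2A variant whose extra macro domain sets it apart from canonical H2A, and it usually lies in broad domains. Fibroblasts and fat depots from different parts of the body differ in the Hox genes they express, and Hoxc8, Hoxc9 and Hoxc10 are among those known from adipose tissue.

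Enriched regions were unevenly spread over the 4 clusters. The Hoxc cluster was covered for most of its length in every sample, the Hoxb cluster to a medium degree, and the Hoxa and Hoxd clusters sparsely, although both lay beside densely covered DNA. The share of the Hoxc cluster lying in regions was 76.2% and 51.7% in the pre-adipocyte replicates and 73.5% and 70.9% in the mature adipocyte replicates. For Hoxb it was 36.3% and 12.2%, then 34.8% and 28.3%. For Hoxa it was 11.2% and 7.22%, then 26.0% and 23.4%.

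The Hoxd cluster was covered at 4.34% and 3.30% before and at 17.3% and 8.20% after differentiation, the lowest of the 4 clusters in every sample. Pre-adipocyte replicate 2 gave the lowest share in every cluster. It was also the least deep library, at 0.549 times the size of the control library against about 1.2 times for the other 3, with 2833105 ChIP reads in its regions against 9876187 to 11592708. Absence of a region therefore means that none was called at this depth, and not that the histone was absent.

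**Figure D1:**
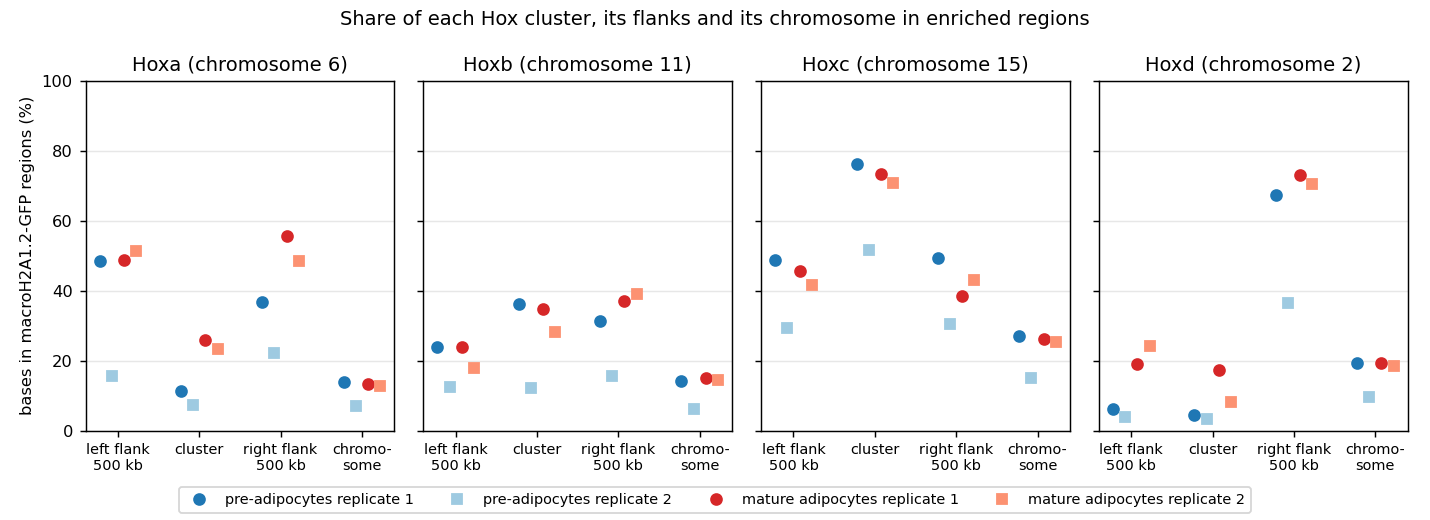
Percent of bases in enriched regions (y axis) of the left flank, the cluster, the right flank and the whole chromosome for each Hox cluster, with a point for each of the 4 samples (blue, pre-adipocytes; red, mature adipocytes; circles, replicate 1; squares, replicate 2). Hoxc (51.7% to 76.2%) stands above its flanks and chromosome in all 4 samples, while Hoxa and Hoxd stand below the mean of their flanks in all 4.

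Against its own flanks, each cluster was compared within each sample. In Hoxc, the flanks were covered at 49.1%, 30.0%, 42.1% and 42.3% (pre-adipocytes 1 and 2, mature adipocytes 1 and 2, the order kept from here on), so that the cluster exceeded them by 27.2 ± 4.04 percentage points (SD, n = 4), and was higher in 4 of 4 samples. The Hoxc difference was 12.1 points with flanks of 250 kb and 41.4 points with flanks of 1 Mb. It did not hold for the nearest DNA. The 100 kb to the left of Hoxc were covered more than the cluster in every sample, at 95.5%, 69.0%, 97.7% and 92.5%. The 100 kb to its right were covered at 89.8%, 45.7%, 72.5% and 78.3%, above the cluster in pre-adipocyte replicate 1 and mature replicate 2 only. In Hoxa, the flanks were covered at 42.6%, 18.9%, 52.3% and 50%, and the cluster differed from them by -24.0 ± 8.53 points (SD, n = 4), lower in 4 of 4 samples. In Hoxd, the flanks were covered at 36.7%, 20.2%, 46.0% and 47.3%, and the difference was -29.3 ± 9.30 points (SD, n = 4), again lower in 4 of 4. Each of these 3 comparisons gave a two-sided exact permutation p of 0.13, the smallest that 4 within-sample pairs allow, so none could reach 0.05.

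Whether the Hoxb cluster stood apart from its surroundings depended on the choice of flanks and regions. Its flanks were covered at 27.5%, 14.0%, 30.6% and 28.4%, the difference was 2.76 ± 4.74 points (SD, n = 4), the cluster was higher in 2 of 4 samples, and the exact permutation p was 0.5. The difference was 9.90 points with flanks of 1 Mb and 5.55 points at a fold enrichment of at least 2, higher in 4 of 4 samples both times, and -3.49 points with flanks of 250 kb. Counting only regions with a fold enrichment of at least 2 turned the Hoxa difference to 0.698 points, so the lower coverage of Hoxa than of its flanks was carried by regions below that enrichment. The Hoxd difference kept its sign under that filter and shrank to -4.19 points.

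Control reads were counted in the same regions. Within the called regions of the Hoxc cluster the control held 18.5 to 18.9 reads per kb, against 18.8 to 19.6 over the regions of all of chromosome 15 and 22.3 to 22.9 in the Hoxc flanks. The corresponding ranges were 17.8 to 20.6 in Hoxa, 14.0 to 15.1 in Hoxb and 15.2 to 20 in Hoxd. Chromosome 11, which carries Hoxb, ranked 16th or 17th of 20 chromosomes in control reads per kb of region. ChIP over control, scaled for library size, was 1.62, 2.08, 1.78 and 1.90 over the regions of the Hoxc cluster and 1.53, 1.76, 1.57 and 1.59 in its flanks. In Hoxa the scaled ratio was 1.49, 2.05, 1.85 and 1.99 in the cluster and 1.57, 1.87, 1.82 and 1.83 in the flanks. These values take whole regions, including parts beyond the end of a cluster. For pre-adipocyte replicate 1, the Hoxa ratio of 1.49 and the 20.6 control reads per kb include a region lying mostly in the left flank (fold 1.33). Its regions at chr6:52225401-52232200 and chr6:52237201-52241400 had folds of 2.26 and 1.63.

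The chromosomes themselves were covered at 7.0% to 13.8% (chromosome 6), 6.28% to 15.1% (chromosome 11), 14.9% to 27.0% (chromosome 15) and 9.62% to 19.4% (chromosome 2). Hoxc coverage was 2.82, 3.47, 2.81 and 2.79 times that of chromosome 15, and Hoxb coverage 2.57, 1.94, 2.30 and 1.97 times that of chromosome 11. Hoxa coverage was 0.816, 1.03, 1.96 and 1.84 times that of chromosome 6, near the chromosome's level in pre-adipocytes and above it in mature adipocytes. Hoxd coverage stayed below that of chromosome 2 in all 4 samples, at 0.224, 0.344, 0.891 and 0.441 times.

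Each cluster was also set beside all windows of its own length on its chromosome. Hoxc was covered more than 89.1% to 94.0% of 864 windows on chromosome 15, and more than 36 to 38 of the 39 windows there that held at least 5 transcription starts. Hoxb was covered more than 82.4% to 88.1% of 680 windows on chromosome 11. Hoxd was covered more than 46.6% to 62.4% of 1843 windows on chromosome 2, of which 85 held at least 5 starts. Among the gene-dense windows the median coverage was 0% on chromosome 2 in every sample and 3.32% to 7.03% on chromosome 6, so the Hoxa and Hoxd clusters were sparse beside their flanks and not beside other gene-dense DNA of their chromosomes.

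Within the clusters the regions lay along the order of the genes. In Hoxa, no sample had a region in the 65.8 kb from chr6:52156401-52222200, which spans 62.5% of the cluster and holds the whole bodies of Hoxa2 to Hoxa7. Regions began again at Hoxa9. Chromosome 6 had 284 region-free stretches at least as long among 3562, and together they made up 59.7% of its span. Of these 284, 18 also held at least as many protein-coding starts as this stretch.

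In Hoxb, the longest region-free stretch was 47.2 kb (chr11:96312201-96359400), with Hoxb2, Hoxb3 and Hoxb4 whole inside it, and a further 5.6 kb was free around Hoxb5. Region-free stretches of at least 47.2 kb made up 55.6% of the span of chromosome 11. In Hoxd, 2 stretches of 42.2 kb (chr2:74717401-74759600) and 23.4 kb (chr2:74692201-74715600) were free in all samples, the second with Hoxd8 and Hoxd9 whole and the starts of Hoxd3, Hoxd4, Hoxd8 and Hoxd9. Region-free stretches of at least 42.2 kb made up 52.7% of the span of chromosome 2. Hoxc had no gap as long as those of the other clusters. Its longest region-free stretch was 5.5 kb at the Hoxc13 end, and 36.8% of the cluster lay in a region in all 4 samples, against 4.75% in Hoxa, 2.76% in Hoxb and 0% in Hoxd.

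**Figure D2:**
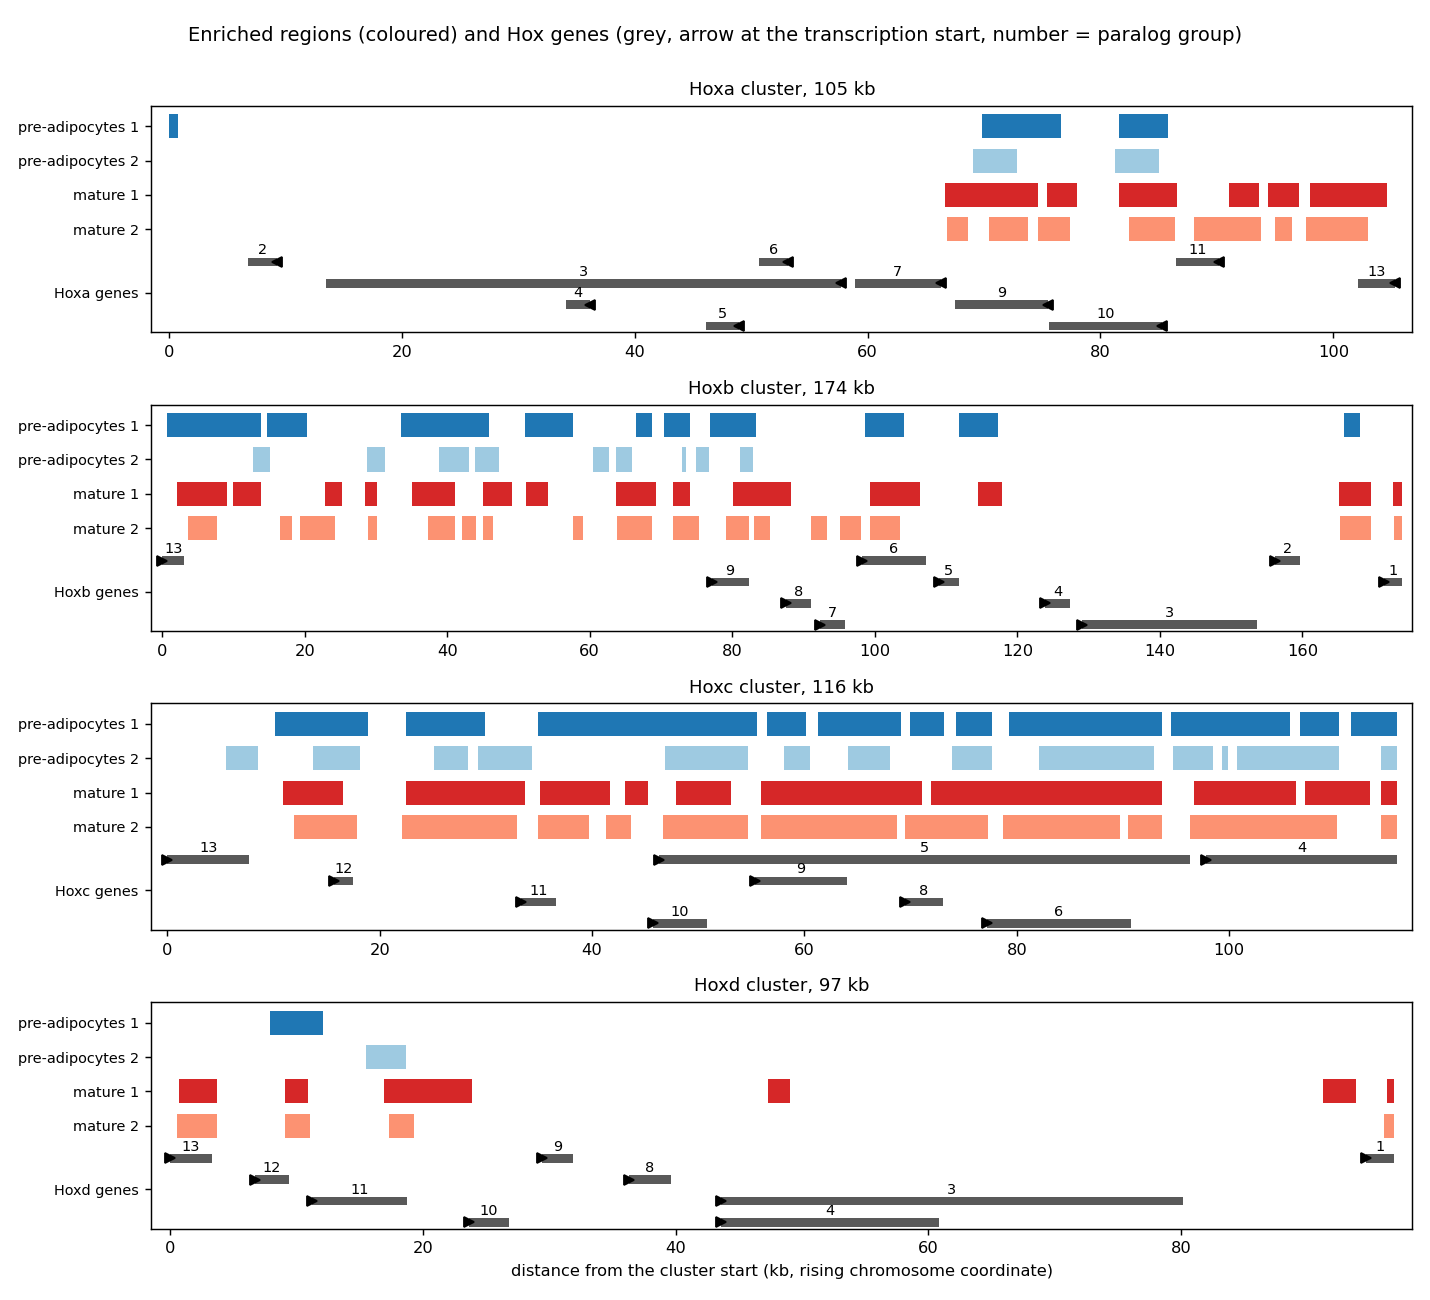
Enriched regions of each sample (coloured bars) above the Hox genes (grey bars, arrowhead at the transcription start, labelled with the paralog group) along each cluster, with distance from the cluster start in kb on the x axis. Hoxa, Hoxb and Hoxd show gaps of 65.8, 47.2 and 42.2 kb without a region in any sample, and the longest in Hoxc is 5.5 kb.

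Of the 39 gene bodies, 16, 12, 24 and 20 overlapped a region by at least 1 bp, against 17.3%, 15%, 22% and 22% of all protein-coding genes in the same samples. As shares of the 39 these were 41.0%, 30.8%, 61.5% and 51.3%, although Hox genes are short, with a median extent of 3488 bp against 17414 bp for all protein-coding genes. The transcription start lay inside a region for 10, 4, 9 and 8 Hox genes, against 5.9%, 2.22%, 5.55% and 5.22% of all protein-coding genes. On chromosome 15, which was covered most of the 4, 38.0%, 29.5%, 40.4% and 40.8% of gene bodies overlapped a region. Hoxc accounted for 8 of the overlapped bodies in every sample and for 6, 4, 5 and 4 of the starts. The genes of 1 cluster are neighbours and often shared a region, so these counts are not of independent genes.

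Bodies of 11 genes overlapped a region in all 4 samples, as did 9.99% of protein-coding genes. They were Hoxa9, Hoxa10, Hoxb9, Hoxd11 and 7 Hoxc genes (Hoxc4, Hoxc5, Hoxc6, Hoxc9, Hoxc10, Hoxc11 and Hoxc12). Without the shallow pre-adipocyte replicate 2, Hoxb6, Hoxc8 and Hoxd12 joined them, making 14, against 12.8% of protein-coding genes. A further 12 genes overlapped none in any sample, against 69.9% of protein-coding genes: Hoxa2 to Hoxa7, Hoxb2 to Hoxb5, Hoxd8 and Hoxd9.

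By paralog group, the anterior genes (groups 1 to 3, 8 genes) were covered over 0.683%, 0%, 3.03% and 1.51% of their joint extent, with no transcription start in a region in any sample. The groups are not separate DNA, because some annotated extents overlap. Hoxa3 spans Hoxa4 to Hoxa6, and Hoxd3 spans Hoxd4. Hoxc5 spans Hoxc9 and most of Hoxc10, so the central Hoxc values include posterior genes. The central genes (groups 4 to 8, 15 genes) were covered over 51.5%, 34.1%, 54.1% and 49.8%, most of it in Hoxc. Central Hoxa genes were at 0% in every sample, while those of Hoxc were at 87.0%, 63.0%, 85.9% and 83.3%. The posterior genes (groups 9 to 13, 16 genes) were covered over 45.1%, 29.7%, 48.1% and 46.7%, and here every cluster contributed. Posterior Hoxa genes were at 42.2%, 31.0%, 64.6% and 53.6%, those of Hoxb at 91.7%, 14.4%, 39.2% and 38.6%, those of Hoxc at 56.8%, 42.6%, 51.6% and 59.2%, and those of Hoxd at 12.3%, 16.7%, 26.2% and 23.7%. Hoxc has no gene of groups 1 to 3. In the clusters that do, anterior genes were covered less than posterior genes in every sample, at 0%, 0%, 4.10% and 3.45% in Hoxb, at 0%, 0%, 6.05% and 1.92% in Hoxd and at no more than 1.64% in Hoxa.

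**Figure D3:**
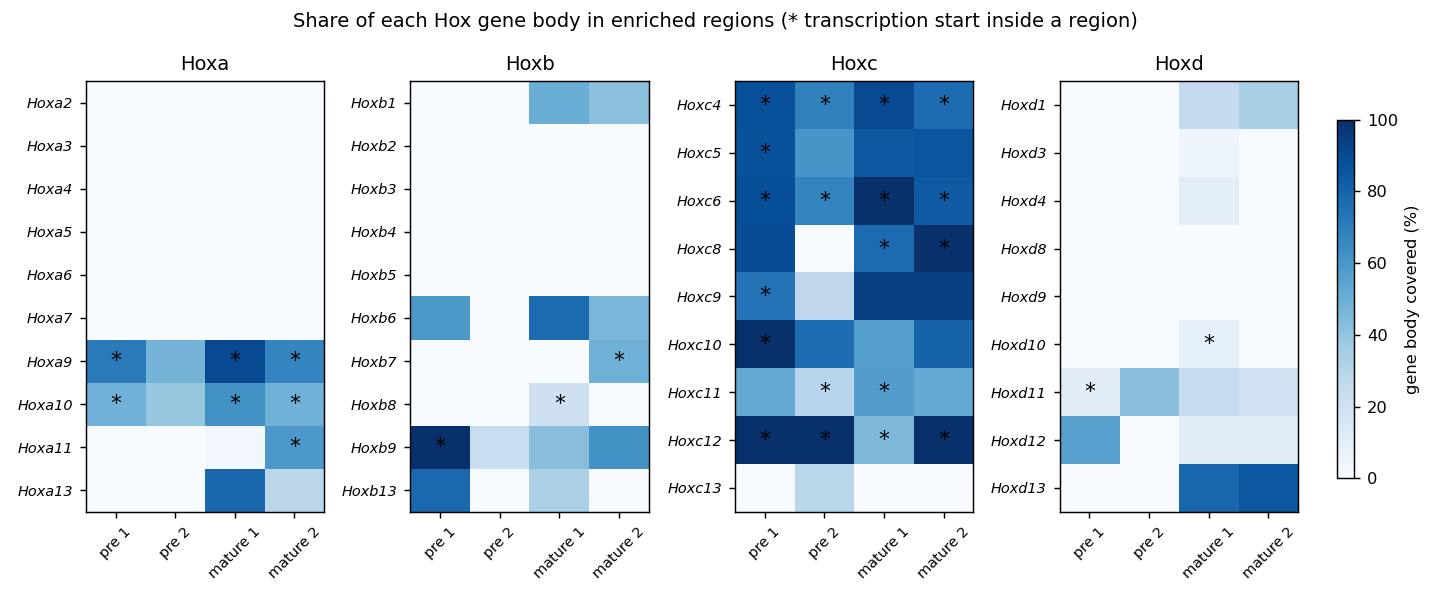
Share of Hox gene bodies in enriched regions (colour, 0% to 100%) in the 4 samples, with genes in paralog order and an asterisk where the transcription start lies inside a region. Hoxa2 to Hoxa7 and Hoxb2 to Hoxb5 are blank in all 4 samples, while 7 of the 9 Hoxc genes are coloured in all 4.

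Among the Hoxc genes, Hoxc12 (chr15:102936757-102938609) had 100%, 100%, 45.5% and 100% of its body in regions, and its start was inside in all 4 samples. Hoxc6 (chr15:102998257-103011881) had 88.3%, 67.7%, 100% and 83.9% with its start inside in all 4. Hoxc4 (chr15:103018934-103036852) had 87.7%, 68.7%, 90.0% and 76.6%, also with its start inside in all 4. By the start of the GENCODE gene, these 3 were the only Hox genes with an occupied start throughout.

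Hoxc10, which marks subcutaneous fat, had 100%, 76.4%, 56.7% and 80.3% of its body covered. Hoxc9, used as a marker of white fat, had 74.6%, 27.7%, 93.5% and 93.5%, and Hoxc8 had 88.8%, 0%, 77.2% and 100%. In Hoxc8 and Hoxc9 the low value was that of pre-adipocyte replicate 2, and the other 3 samples lay close together. Hoxc8 was the only Hox gene with its start inside a region in both mature samples and in neither pre-adipocyte sample. That start is at chr15:102990607. The region over it began at chr15:102990601 in mature replicate 2, and a region began just inside the gene, at chr15:102991001, in pre-adipocyte replicate 1. The share of all genes meeting this rule was not counted.

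Hoxc5 had 86.8%, 60.9%, 84.4% and 85.7% covered, but its annotated extent of 49987 bp (chr15:102967443-103017429) overlaps Hoxc6, Hoxc8, Hoxc9 and Hoxc10, so its value includes theirs. Hoxc11 had 52.0%, 29.7%, 57.3% and 52.0%. Hoxc13, needed for hair and nail formation, stood apart from its cluster with 0%, 28.7%, 0% and 0%. Its start lay in the region-free end of the cluster.

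In the Hoxa cluster, occupancy lay mostly at the posterior end. Hoxa9, a regulator of blood stem cells (chr6:52223100-52231089), had 71.2%, 47.6%, 90.0% and 67.5% of its body in regions. Hoxa10, required in the uterus (chr6:52231197-52240854), had 48.2%, 39.3%, 62.7% and 48.2%. Both had their start inside a region in 3 of 4 samples, all but pre-adipocyte replicate 2.

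Hoxa11, of the forearm and uterus, had 0%, 0%, 2.56% and 59.6% covered. Hoxa13, of the hand and foot, had 0%, 0%, 78.7% and 28.5%. Both overlapped regions in mature adipocytes and in no pre-adipocyte sample, with the mature replicates far apart. Between them lay the most enriched region of the cluster, chr6:52250601-52252000 in mature replicate 2 (fold 4.75, 63 ChIP and 11 control reads), which overlapped chr6:52250001-52252600 in mature replicate 1 (fold 2.96, 98 ChIP and 27 control reads).

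In the Hoxb cluster, Hoxb9 (chr11:96271457-96276595) was the only gene overlapped in all samples, with 100%, 23.3%, 42.7% and 62.2% of its body covered. Hoxb6 had 59.4%, 0%, 77% and 46.2%. Hoxb13, of the tail and prostate, had 78.1%, 0%, 33.4% and 0%, Hoxb7 had 0%, 0%, 0% and 49.2%, and Hoxb8 had 0%, 0%, 20.4% and 0%. These varied as much between replicates as between conditions. Hoxb1, of the hindbrain (chr11:96365752-96368256), had 0%, 0%, 50.1% and 42.2%.

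In the Hoxd cluster, Hoxd13, the most posterior gene and a partner of Hoxa13 in digit formation (chr2:74668310-74671599), had 0%, 0%, 79.0% and 85.1% of its body covered. The region behind it held 144 ChIP and 58 control reads in mature replicate 1 (fold 2.02) and 143 and 60 in mature replicate 2 (fold 1.98). Hoxd1 (chr2:74762980-74765142) at the other end had 0%, 0%, 25.1% and 34.3%. Here the mature replicates were alike and no pre-adipocyte sample had a region over the gene. The nearest regions of pre-adipocyte replicates 1 and 2 lay 259 and 3459 bp from Hoxd1. The mature regions over Hoxd1 were the edge of a merged region called in all 4 samples (chr2:74764401-74807200). Its log2 fold change, mature minus pre-adipocytes, was 0.07 ± 0.07 (SE).

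Hoxd11 was overlapped in all samples at 11.3%, 42.9%, 24.3% and 19.0%, but the regions of the pre-adipocyte replicates there did not overlap each other. Hoxd12 had 55.9%, 0%, 11.3% and 11.3%. Hoxd3, Hoxd4 and Hoxd10 were touched in mature replicate 1 alone, over 4.93%, 10.4% and 8.71% of their bodies, and Hoxd3 and Hoxd4 by the same region.

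Taking all 39 genes, 5 overlapped a region in both mature samples and in no pre-adipocyte sample (Hoxa11, Hoxa13, Hoxb1, Hoxd1 and Hoxd13), against 3.07% of protein-coding genes. None did the reverse, against 0.45% of protein-coding genes. Leaving out pre-adipocyte replicate 2 kept the same 5, against 4.33% of protein-coding genes. It gave 1 gene in the reverse direction, against 1.88% of protein-coding genes. The same 5 genes belong to groups 1, 11 and 13, at or next to an end of their cluster. Hoxd1 was overlapped by the edge of a merged region called in all 4 samples.

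Replicates of the same condition placed their regions differently. The bases shared by both replicates, as a fraction of those in either, were 0.492 in Hoxa, 0.137 in Hoxb, 0.520 in Hoxc and 0 in Hoxd for pre-adipocytes. For mature adipocytes they were 0.635, 0.431, 0.792 and 0.423. Over the whole chromosomes the same fractions were 0.266 to 0.410 for pre-adipocytes and 0.454 to 0.624 for mature adipocytes, so that in Hoxd the pre-adipocyte replicates shared no base where chromosome 2 gave 0.338.

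Noncoding genes inside the clusters followed their surroundings. Hotair, a long RNA transcribed from between Hoxc11 and Hoxc12 and studied for silencing in trans (chr15:102944062-102947730), was in regions over 100%, 41.7%, 100% and 100% of its extent. Hotairm1, Hoxaas2 and Hoxaas3, in the region-free stretch of Hoxa, were at 0% in every sample. Hoxa11os, antisense to Hoxa11, was at 0%, 0%, 48.1% and 92.6%. In Hoxb, Hoxb5os was at 38.5%, 0%, 44.1% and 35.1%, while Hoxb3os was at 0% throughout.

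The clusters also carry microRNA genes of the miR-196 and miR-10 families, which target Hox transcripts. Their mature sequences are shown because miR-196 genes lay in regions in some samples and miR-10 genes in none. Whether this follows family or position in the clusters was not tested. The sequences are those of RefSeq on GRCm38.p6, 5′ to 3′, with the seed, bases 2 to 8, in capitals.
miR-196a-5p (Mir196a-2, chr15:102973365-102973386, plus strand, and Mir196a-1, chr11:96265187-96265208, plus strand): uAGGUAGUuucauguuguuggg
miR-196b-5p (Mir196b, chr6:52230129-52230150, minus strand): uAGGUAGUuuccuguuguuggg
miR-10a-5p (Mir10a, chr11:96317186-96317208, plus strand): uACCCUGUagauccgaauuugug
miR-10b-5p (Mir10b, chr2:74726074-74726096, plus strand): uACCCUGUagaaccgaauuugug

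The miR-196 hairpins, which share the seed AGGUAGU, lay beside posterior genes. Mir196a-2 in Hoxc was inside a region in all 4 samples, Mir196b in Hoxa in replicate 1 of both conditions and 36 bp from a region in mature replicate 2, and Mir196a-1 in Hoxb in pre-adipocyte replicate 1 alone. The miR-10 hairpins, which share the seed ACCCUGU and lie beside Hoxb4 and Hoxd4, were inside a region in no sample. The nearest region was at least 4965 bp from Mir10a and at least 8670 bp from Mir10b. Mir615, within Hoxc5, was in no region in any sample.

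RefSeq promoters of 250 bases before to 50 after a start were at hand for 22 of the 39 genes, with 24 promoters among them. Hoxc4 was the only Hoxc gene in this set, which came mainly from the sparsely covered Hoxa and Hoxd clusters. The RefSeq promoter of Hoxc4 (chr15:103034145-103034444) lies inside the GENCODE gene. It was in regions over 100%, 0%, 85.3% and 0% of its bases, unlike the GENCODE start. The share of all promoters reached by a region was not counted. In no sample did a region reach 17 of the 24, and these had a median of 20 CG dinucleotides (4 to 45), against 12 (4 to 22) in the 7 reached in at least 1 sample and 7 over all 32851 promoters. The 180 bases upstream of 4 starts are shown, on the strand of the gene and with CG dinucleotides in capitals, as examples of occupied and free promoters, chosen after their values were seen. The Hoxa9 start is that of a RefSeq transcript inside the GENCODE gene.
Hoxa9 (chr6:52227371-52227550, minus strand, in a region in all 4 samples): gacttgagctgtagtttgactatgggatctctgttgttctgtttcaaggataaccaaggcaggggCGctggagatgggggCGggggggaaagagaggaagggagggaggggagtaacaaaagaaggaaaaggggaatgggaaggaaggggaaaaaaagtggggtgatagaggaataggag
Hoxa10 (chr6:52240855-52241034, minus strand, in a region in 3 samples): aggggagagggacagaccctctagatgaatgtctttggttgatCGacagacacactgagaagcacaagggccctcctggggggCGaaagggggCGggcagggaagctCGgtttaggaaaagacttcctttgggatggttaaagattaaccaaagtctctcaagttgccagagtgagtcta
Hoxa5 (chr6:52204588-52204767, minus strand, in a region in no sample): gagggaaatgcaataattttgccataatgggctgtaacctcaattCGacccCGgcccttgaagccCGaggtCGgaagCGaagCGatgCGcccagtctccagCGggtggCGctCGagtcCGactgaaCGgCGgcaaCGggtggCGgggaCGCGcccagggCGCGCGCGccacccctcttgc
Hoxd13 (chr2:74668045-74668224, plus strand, in a region in no sample): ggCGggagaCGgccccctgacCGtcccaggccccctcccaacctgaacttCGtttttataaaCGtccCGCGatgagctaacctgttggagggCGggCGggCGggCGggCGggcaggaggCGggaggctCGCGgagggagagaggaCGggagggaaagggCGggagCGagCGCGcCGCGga

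These stretches held 2 CG dinucleotides at Hoxa9, 4 at Hoxa10, 21 at Hoxa5 and 22 at Hoxd13. The whole set was less clear-cut than these examples, since promoters of Hoxd4 and Hoxd8, with 4 and 6 CG dinucleotides, were in no region and that of Hoxd10, with 22, was in a region in mature replicate 1. At Hoxd13 both mature samples had a region over most of the body and none over the promoter. The part of CG content in where regions were called was not tested. The motif TGATTNAT, bound by Hox proteins together with Pbx, was searched on both strands and found in 8.33% of the 24 promoters (1 of Hoxa2 and 1 of Hoxd11) and in 3.22% of all promoters of the same length. Neither of the Hox promoters with a match lay in a region.

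Outside the clusters, dense occupancy began close to the last genes on the left of Hoxa and on both sides of Hoxc. In the 100 kb to the left of Hoxa, 92.0%, 43.2%, 84.2% and 90.6% of bases were in regions, and no protein-coding gene starts there. The 100 kb to the left of Hoxc were covered at 95.5%, 69.0%, 97.7% and 92.5%, likewise with no start, and the 100 kb to its right at 89.8%, 45.7%, 72.5% and 78.3%. From 300 to 400 kb left of Hoxc coverage was 0% in all samples. The 100 kb to the right of Hoxa were covered less than those to its left in every sample, at 28.6%, 16.5%, 60.6% and 51%.

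Hoxd divided its surroundings sharply. Its left flank, beyond Hoxd13, was covered at 6.08%, 3.92%, 19.0% and 24.1%, and its right flank, beyond Hoxd1, at 67.3%, 36.6%, 73.0% and 70.6%. Against the left flank alone the cluster differed by -5.01 points and against the right flank alone by -53.6 points. In each of the 5 windows of 100 kb on the left both mature samples lay above both pre-adipocyte samples, nearest the cluster at 13%, 9.20%, 28.0% and 38.6%. On the right this held in 1 of 5 windows. Of all 13871 windows of 100 kb with a region it held in 34.2%, and neighbouring windows are not independent.

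**Figure D4:**
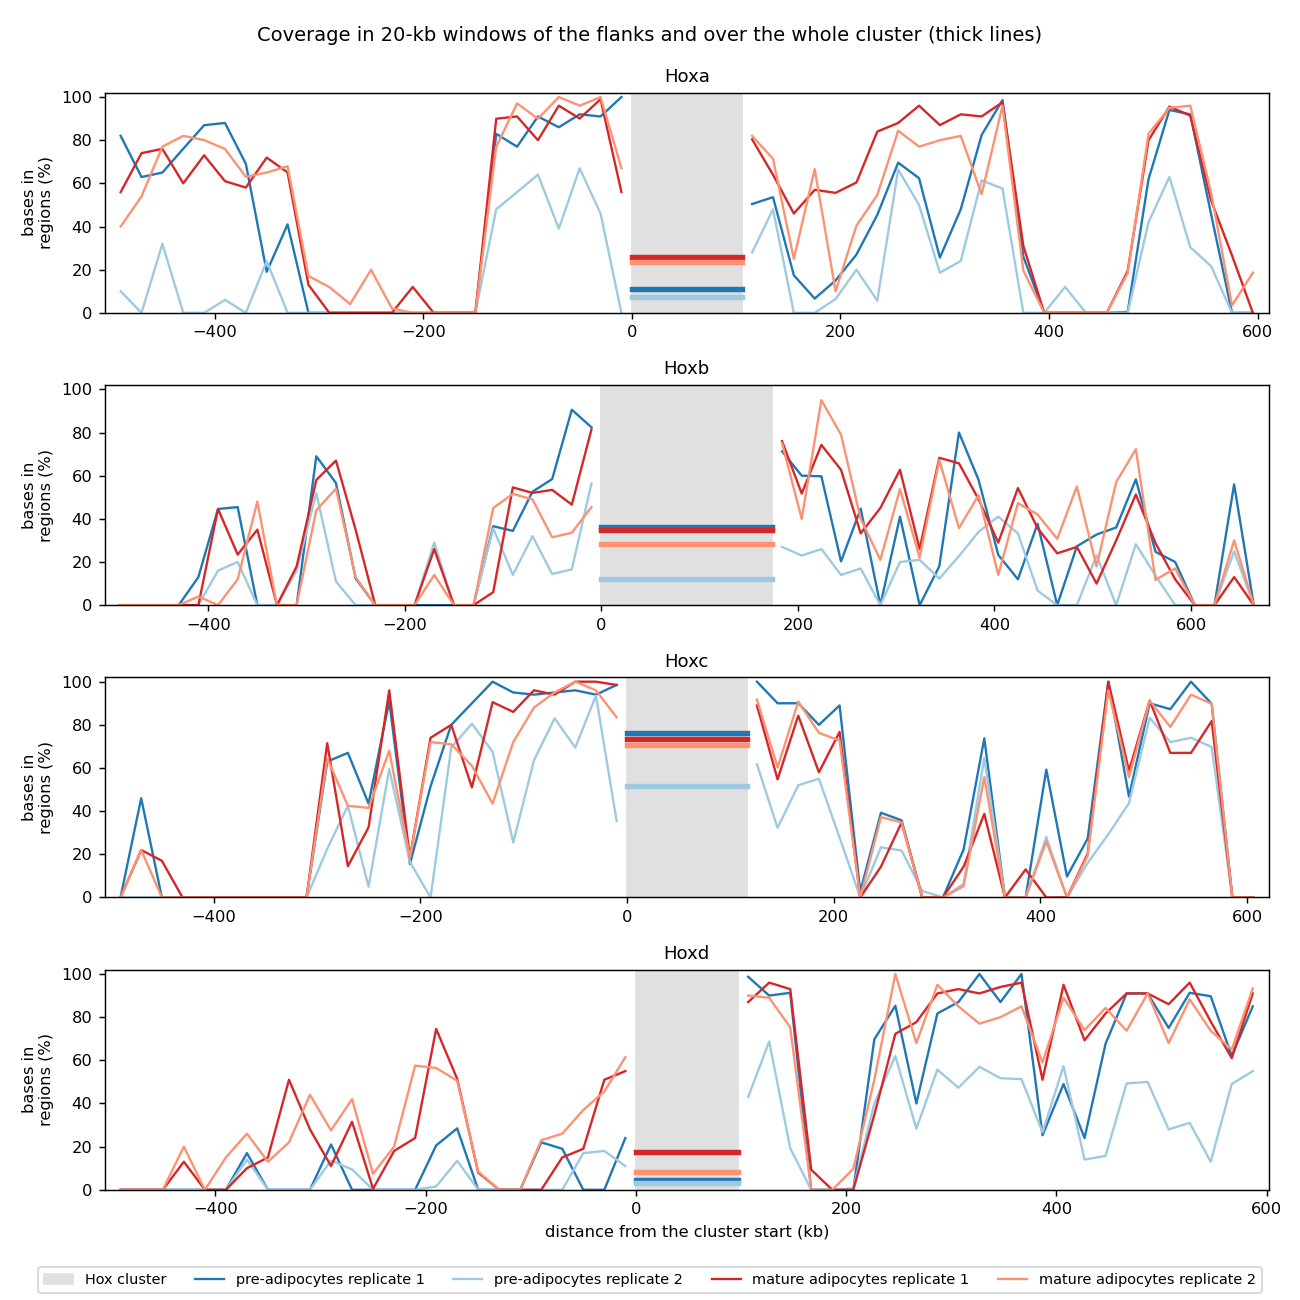
Percent of bases in enriched regions (y axis) in 20-kb windows of the 500 kb on each side of each cluster (thin lines), with the whole cluster as a grey band and its coverage as thick lines, against distance from the cluster start in kb. Coverage next to Hoxa and Hoxc exceeds 80% in 3 samples over parts of the flanks, Hoxa itself lies at 7.22% to 26.0%, and the left flank of Hoxd is low beside its right flank in every sample.

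Of the 50 protein-coding genes in the flanks, 29 (58.0%) had no region in any sample, against 69.9% of all protein-coding genes, and all 7 beside Hoxa and Hoxd had a region in at least 1 sample. On the left of Hoxc, 11 of 12 had none in any sample, and Amhr2, the receptor of anti-Müllerian hormone, was the exception at 71.6%, 0%, 47.5% and 47.5%. On its right 7 of 13 had none, while Nckap1l, an actin regulator of blood cells, had 90.2%, 70.2%, 72.4% and 88.0% of its body covered. Gtsf2 was covered at 87.4%, 62.2%, 58.0% and 79.0%, Gtsf1, a factor of the piRNA pathway in germ cells, at 55.8%, 50.8%, 64.4% and 62.2%, and Nfe2, an erythroid transcription factor, at 54.9%, 21.6%, 43.2% and 25.5%. The nearest genes, Calcoco1 and Smug1, had none.

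Beside Hoxb, the nearest genes were covered, Ttll6 at 67.8%, 10.8%, 44.9% and 34.8% and Skap1 at 30.5%, 17.4%, 42.0% and 41.8%. Calcoco2, an autophagy receptor, was covered at 40.9%, 0%, 60.7% and 69.3%, and B4galnt2 at 28.2%, 27.8%, 31.1% and 18.0%. Gngt2 had 0%, 0%, 37.6% and 42.3%, with regions in both mature samples alone. On the left 7 of 13 genes and on the right 4 of 5 had no region in any sample.

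Beside Hoxa, Evx1, a homeobox gene 52.6 kb away, was covered at 20%, 0%, 0% and 0%, and Skap2, Hibadh and Tax1bp1 at no more than 11.3% in any sample. Beside Hoxd, Evx2, 8.75 kb from Hoxd13 and regulated with it, was covered at 20.7%, 0%, 27.6% and 33.7%, Lnpk at 0%, 0%, 0% and 5.41% and Mtx2 at 0%, 0%, 2.28% and 0%. The annotated protein-coding genes Gm28308, Gm28230 and 5730596B20Rik inside the clusters had no region.

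Genes that act with or on Hox genes, a list of 34 cofactors and chromatin regulators, were occupied to a degree near that of all genes. Bodies of 7, 4, 8 and 10 of the 34 overlapped a region (20.6%, 11.8%, 23.5% and 29.4%, against 17.3%, 15%, 22% and 22% of all protein-coding genes). Those of 20 (58.8%) overlapped none in any sample, against 69.9%, and only Phc2, a Polycomb subunit, did so in all 4, at 11.6%, 10.8%, 15.7% and 17.5%. Cbx7, which reads the Polycomb mark, had 28.2%, 0%, 8.68% and 19.2%, and Pbx4, a homeodomain cofactor, 12.1%, 0%, 29.4% and 11.6%. Cdx1, a regulator of Hox genes in the embryo, had 17.0%, 13.8%, 0% and 4.26%, Cdx2 0%, 0%, 0% and 9.22%, and Pbx3 0%, 0.892%, 3.17% and 5.26%. Evx1 and Evx2 are given above. The start was inside a region for 2 of the 34 in pre-adipocyte replicate 1 (Evx2 and Ezh1, the latter named after its values were seen) and for none in the other samples.

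Whether occupancy of the clusters changed with differentiation was compared between the 2 samples of each condition. Cluster coverage was higher in both mature samples than in both pre-adipocyte samples in Hoxa, by 15.5 points (9.22% ± 2.83 against 24.7% ± 1.88, SD, n = 2 each), and in Hoxd, by 8.92 points (3.82% ± 0.730 against 12.7% ± 6.43). With regions of at least 2-fold enrichment these differences were 3.80 points in Hoxa, where the conditions then overlapped (exact permutation p = 0.67), and 3.61 points in Hoxd. Of all 13871 windows of 100 kb with a region, 34.2% had both mature samples above both pre-adipocyte samples. In Hoxb (24.3% ± 17.1 against 31.5% ± 4.55) and Hoxc (64.0% ± 17.3 against 72.2% ± 1.83) the conditions overlapped. The exact two-sided permutation p was 0.33 for Hoxa and Hoxd, the smallest that 2 samples against 2 allow, and 1 for Hoxb and Hoxc.

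The flanks differed in the same direction. Flank coverage was also higher in both mature samples beside Hoxa (30.8% ± 16.8 against 51.2% ± 1.64) and Hoxd (28.5% ± 11.6 against 46.7% ± 0.923), while chromosomes 6 and 2 as a whole overlapped between conditions. Divided by the coverage of the chromosome in the same sample, Hoxa coverage gave 0.924 ± 0.153 for pre-adipocytes against 1.90 ± 0.0911 for mature adipocytes, and that of Hoxd was 0.284 ± 0.0848 and 0.666 ± 0.318, both without overlap. On this scale 25.4% of the 13871 windows had both mature samples higher and 21.3% had both lower. For Hoxc the values were 3.15 ± 0.456 and 2.80 ± 0.0175, with both mature samples below both pre-adipocyte samples, and in Hoxb the conditions overlapped at 2.25 ± 0.442 and 2.14 ± 0.234.

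Leaving out the shallow pre-adipocyte replicate 2 gave mature minus pre-adipocyte differences of 13.5 points in Hoxa and 8.41 in Hoxd, and of -4.80 in Hoxb and -4.06 in Hoxc. The positive differences of Hoxb and Hoxc thus rested on that library. The Hoxd difference was 4.38 points without mature replicate 1 and 13.5 points without mature replicate 2. In Hoxa, 11.6% of the cluster lay in a region in both mature and in neither pre-adipocyte sample, and 0% in both pre-adipocyte and in neither mature sample. The same shares were 4.28% and 0% in Hoxd, 4.17% and 1.38% in Hoxb and 2.76% and 1.56% in Hoxc. Over chromosome 6 they were 1.88% and 0.677%, and over chromosome 2 they were 2.85% and 0.741%.

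The amount of ChIP reads within regions was tested where regions existed in all 4 samples. Regions of all samples were merged where they overlapped, and 12857 of 62927 merged regions held a call in every sample, 14 of them touching a Hox cluster (3 in Hoxa, 5 in Hoxb, 5 in Hoxc and 1 in Hoxd) and 80 with the flanks included. By edgeR's quasi-likelihood test with Benjamini-Hochberg adjustment over all 12857, none of the 14 and none of the 80 passed an adjusted p of 0.05, while of all regions 0.0778% passed with more reads in mature adipocytes and 0.00778% with fewer. At an unadjusted p of 0.05, 3 of the 14 and 10 of the 80 passed, as did 1176 of the 12857, and DESeq2 called none of the 80. Most of Hoxd and the parts of Hoxa and Hoxb with regions in mature adipocytes alone could not enter this test. The 1 Hoxd region (chr2:74764401-74807200) and 1 of the 3 Hoxa regions lay mostly in the flanks, so their fold changes describe mainly flank sequence.

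Log2 fold changes (mature minus pre-adipocytes) of the 14 ran from -0.14 to 0.33 with a median of 0.05, and 10 of them were above 0, against 49.8% of all regions. The region that overlaps Hoxa9 and Hoxa10 (chr6:52222201-52233600) had 41.2, 19.7, 42.3 and 46.8 ChIP reads per kb of called sequence and a log2 fold change of 0.02 ± 0.12 (SE). The Hoxc region from Hoxc9 to Hoxc6 (chr15:102977001-103014800) had 41.4, 23.5, 41.5 and 42.8 reads per kb and -0.14 ± 0.07 (SE). Its neighbour over Hoxc10 and Hoxc11 (chr15:102956001-102976600) had 33.2, 17.6, 42.3 and 40.1 reads per kb and 0.18 ± 0.09 (SE). Pre-adipocyte replicate 2, the least deep library, had the fewest reads per kb in all 3.

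The smallest adjusted p among the 80 belonged to a region between genes 265 kb to the left of Hoxc (chr15:102626001-102656400), with 42.7, 22.7, 41.0 and 37.0 reads per kb, a log2 fold change of -0.26 ± 0.08 (SE) and an adjusted p of 0.191 by edgeR. A region 30.9 kb to the right of Hoxa (chr6:52291801-52307400) had 34.0, 15.0, 42.3 and 44.2 reads per kb, 0.34 ± 0.12 (SE) and an adjusted p of 0.327 by edgeR. Inside Hoxb, a region between Hoxb13 and Hoxb9 (chr11:96227801-96243400) had 25.9, 17.5, 35.3 and 42.9 reads per kb, 0.33 ± 0.12 (SE) and an adjusted p of 0.370 by edgeR. Without pre-adipocyte replicate 2, 3 of the 80 passed, as did 1.74% of all regions, the region left of Hoxc among them (log2 fold change -0.29, adjusted p = 0.0260 by edgeR), and still none of the 14 in the clusters. In that fit the lone pre-adipocyte sample was assumed to vary like the mature pair.

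**Figure D5:**
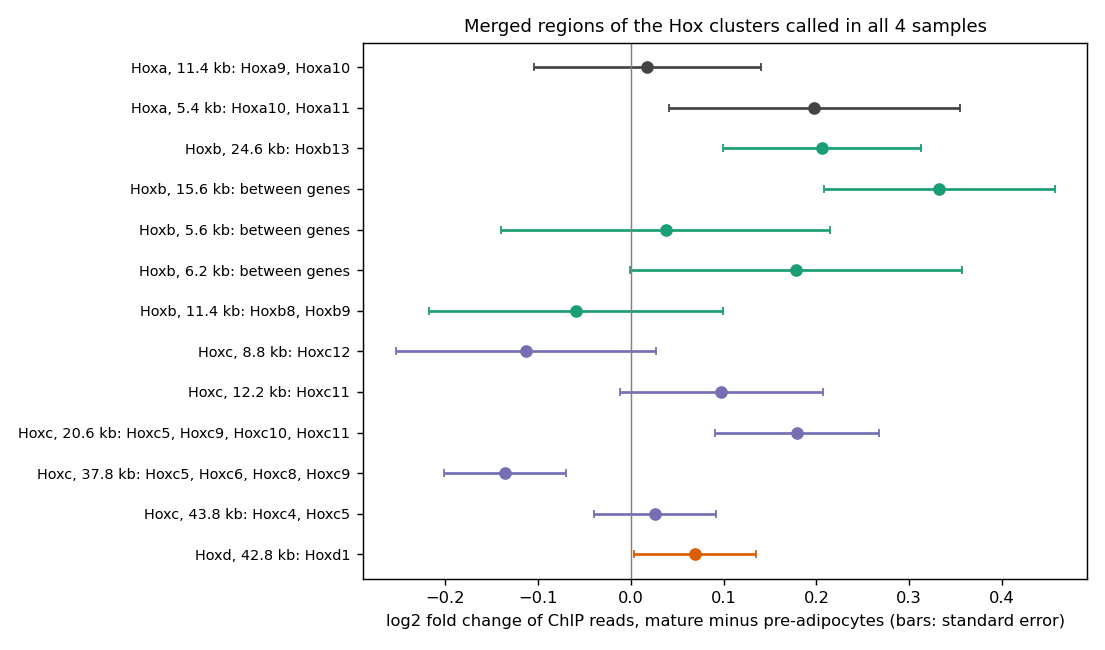
Log2 fold change of ChIP reads, mature minus pre-adipocytes (x axis, error bars are the standard error of the edgeR fit), for merged regions that touch a Hox cluster and were called in all 4 samples (1 of the 14 is not drawn), labelled by cluster, length and the Hox genes they overlap. All lie between -0.14 and 0.33, and none passes the adjusted p of 0.05. The Hoxd region lies mostly in the right flank.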

How the data were processed

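Per the study's methods and the submitters' processing notes, the authors aligned reads with Bowtie 1.1.2 to mm10, keeping unique reads with at most 2 mismatches, removed duplicates with Picard, and called regions of each sample against the no-antibody library with SICER 1.1 at standard settings. The deposited region lists hold ChIP and control read counts, a p-value and FDR, and a fold over control scaled for library size. The deposited regions have an FDR of at most 0.001, whereas the study's methods name 1%. These values were used as deposited, and all coordinates count from 1. Only regions were used here, and sequence between them has no value.

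Covered shares were computed per sample from the union of its regions with pandas 2.3.3 and numpy 2.4.6 in Python 3.11.15. A gene overlapped a region from 1 bp. Clusters were compared with flanks within samples, and conditions between samples, by exact two-sided permutation tests (scipy 1.17.1). Figures were drawn with matplotlib 3.10.9. Replicates are biological duplicates per the study, so p-values measure only the spread between these samples.

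Regions overlapping between samples were merged, and those called in all 4 were tested with edgeR 4.0.16 (R 4.3.3, limma 3.58.1) on the ChIP counts, with the called length as an offset and TMM factors. The factors were computed from counts per called length, a form adopted after a first version without it failed on simulated data. In the simulation of mature against pre-adipocytes over 12857 regions, 42% of changes of 0.5 and 98% of changes of 1 on the log2 scale were recovered, and 8 unchanged regions were called. Every simulated region had the same set spread, not estimated from these data. The recovered shares therefore do not give the power of the real comparison. Selection by a call in every sample ties these counts to the regions' own threshold. DESeq2 1.42.0 was an alternative, as were stricter region filters, other flanks and leaving out each replicate.

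Genes named were all Hox genes overlapping a region, the nearest and the up to 5 most covered flank genes per cluster, the 8 most covered of 34 listed cofactors and regulators, and the 3 merged regions with the smallest adjusted p. The members and lists were chosen with earlier results of these data known. RefSeq (GRCm38.p6) gave promoters for 22 of the 39 genes. The values of 1 Hox gene, which is part of the counts and cluster totals, are not reported here.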

Additional observations from a re-analysis of the deposited data

How the results depend on the processing

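Of the alternatives to the cluster against flank differences, 48 kept the direction and 4 turned it, and of those to the mature minus pre-adipocyte differences 35 kept it and 5 turned it. With regions of at least 2-fold enrichment, Hoxa against its flanks became 0.698 points and Hoxc mature minus pre-adipocytes -1.21 points, while that of Hoxb became 16.0 points without overlap. Hoxb against its flanks became -0.643 points with regions shared by 50% of both replicates' lengths, -3.49 with flanks of 250 kb and -2.84 against the right flank alone. Divided by chromosome coverage, mature minus pre-adipocytes was -0.115 in Hoxb and -0.348 in Hoxc. Leaving out each replicate gave -4.80 to 19.3 points in Hoxb and -4.06 to 20.5 in Hoxc, negative without pre-adipocyte replicate 2. The single-flank and chromosome-scaled alternatives were chosen after seeing the data, as were the gene counts without that library. The causes were not tested.

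The mean number of Hox genes overlapping a region, 18 per sample, was 7.75 by transcription start, 9.75 at a fold of at least 2 and 10.75 with at least 50% of the body covered. For the fold and 50% filters the share of all protein-coding genes was not counted. The 11 regions differing between conditions became 2 by DESeq2, 3 without the length offset, 27 of 10487 with at least 50 ChIP reads in every sample and 1 of 9125 at an FDR of at most 1e-05. Leaving out 1 library gave 1 (mature replicate 2) to 224 (pre-adipocyte replicate 2), with 5 without mature replicate 1 and 112 without pre-adipocyte replicate 1. The Hoxb region between Hoxb13 and Hoxb9 had a log2 fold change of -0.17 without the length offset. With the replicate number as a block, 27 regions passed and none in the Hox clusters or flanks. The samples were not treated as pairs, since they share only a number. Same-numbered deviations correlated at 0.00775, which cannot show whether those samples were handled together. With 2 samples per condition no coverage difference could reach 0.05, and region calls depend on depth, which was lowest in pre-adipocyte replicate 2.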
